A study of Homo sapiens with 10 samples.

Results

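The clustered protocadherins are cell-surface cadherins encoded by 3 neighbouring gene clusters on the long arm of human chromosome 5, named alpha, beta and gamma. The members were taken by name, as every row of the expression table whose gene symbol is PCDHA, PCDHB or PCDHG followed by the isoform number, with or without the subfamily letter. This gave 54 of the 58302 rows, of which 16 belong to the alpha cluster, 16 to the beta cluster and 22 to the gamma cluster. One of the 16 alpha rows, PCDHA14, is annotated as a pseudogene.

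In the alpha and gamma clusters, each isoform has its own promoter and its own large first exon, which is spliced to constant exons that all isoforms of that cluster share. Beta genes consist of a single coding exon and have no constant part. Neurons each switch on a small, partly random set of the isoforms, whose extracellular domains bind like to like and give the cell an identity. The choice is known to depend on CTCF and cohesin, which bring a promoter to a distant enhancer, and on DNA methylation of the promoters. The C-type isoforms at the end of the alpha and gamma clusters are known in mouse neurons as isoforms used by most cells rather than by random choice.

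The libraries come from KYSE-410, a human oesophageal squamous carcinoma cell line. INPPL1, the gene for the lipid phosphatase SHIP2, had been targeted with a nickase form of Cas9, and cells sorted on a co-transfected GFP reporter were expanded to single colonies. The knock-out clones, 4 in number and named D4, G10, G4 and H3, were compared with 1 control colony that had received the vector without a guide RNA. There are 2 libraries per group and 10 in all, and each group is a single colony, so a difference between groups is a difference between colonies. The labels do not say whether the 2 libraries of a colony came from separate cultures, so p-values measure only the spread between these libraries, which may be technical.

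Values are reads of a gene scaled to a common library size (CPM), and the 10 libraries hold between 9653835 and 14253437 reads, as estimated from the steps of the values. A count of 3 reads, taken as the floor of detection, corresponds to 0.21 to 0.311 CPM. INPPL1 stood at 140.0 and 149.8 CPM in the control libraries, 83.6 and 93.3 in D4, 65.4 and 64.4 in G4, 9.49 and 9.49 in G10, with 88.1 and 85.3 in H3. All 8 clone libraries lay below both control libraries, and the clone means were 61.0% (D4), 44.8% (G4), 6.6% (G10) and 59.9% (H3) of the control mean. A row count measures RNA and not the protein on which the clones were screened. Of 8 squamous markers, 7 reached 1 CPM in every library, and KRT14 stayed between 0.15 and 1.40 CPM. The summed squamous markers ran from 2057 to 2062 CPM in the control, from 1140 to 1160 in G4, and from 364 to 837 in D4, G10 and H3. KRT6A had the largest fall in CPM, from 899 and 919 in the control to 4.75 to 12.3 in D4, G10 and H3. The markers did not move together, since KRT5 stood at 13.6 and 12.8 CPM in the control, 53.0 and 57.4 in D4 and 17.1 and 19.4 in H3. KRT5 was lowest in G4, at 6.35 and 6.80 CPM. Of 8 neuronal markers, 6 stayed under 1 CPM everywhere, RBFOX3, SNAP25, STMN2 and ELAVL4 among them, while MAP2 and TUBB3 did not. All 5 leukocyte markers stayed under 1 CPM, and of 6 fibroblast markers only LUM and COL1A1 exceeded it, with a summed level of 11.9 to 20 CPM in the control and G4 against 41.2 to 136 CPM in D4, G10 and H3. The 4 endothelial markers summed to 0.85 to 3.15 CPM. The part of these marker levels in the results below was not tested. In bulk RNA, fewer cells that use an isoform and less of its RNA per cell cannot be told apart.

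The promoters are shown first because the members share them as families and because an isoform is chosen at its promoter. RefSeq (GRCh38.p14) windows from 250 bases before to 50 bases after the start were matched by symbol for 47 of the 54 members. CGCT, the core of the element known from clustered protocadherin promoters, occurred on the gene's strand in 12 of 13 alpha, 14 of 14 beta and 20 of 20 gamma members, beside 54.33% of all 35116 promoters (70.01% on either strand). GGCGCTGC and CGCTGT, longer strings that contain CGCT, were picked after the sequences had been seen. GGCGCTGC stood in 11 of 14 beta members, in 0 of the 13 alpha and 0 of the 20 gamma members, and in 2.35% of all promoters (4.38% on either strand). CGCTGT stood in 17 of 20 gamma members, 6 of 13 alpha members and 1 of 14 beta members, beside 5.95% of all promoters (11.2% on either strand). A consensus motif of CTCF matched 0 of the 47 members on either strand, beside 0.07% of all promoters, which says only that these letters are not in these windows. Below, GGCGCTGC is in capitals in 5 beta promoters, all on the plus strand of chromosome 5.
PCDHB5 (chr5:141135173-141135220): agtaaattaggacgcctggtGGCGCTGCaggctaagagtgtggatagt
PCDHB2 (chr5:141094538-141094585): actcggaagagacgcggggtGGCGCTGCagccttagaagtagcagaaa
PCDHB16 (chr5:141182304-141182351): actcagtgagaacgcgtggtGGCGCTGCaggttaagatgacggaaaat
PCDHB8 (chr5:141177771-141177818): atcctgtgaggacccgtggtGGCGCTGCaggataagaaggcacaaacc
PCDHB13 (chr5:141213859-141213906): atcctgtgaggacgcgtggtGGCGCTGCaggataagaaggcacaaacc
These 5 were picked from the 11 with their values known. They hold the 2 highest beta levels and the largest beta difference reported below, that of PCDHB16. GGCGCTGC also stood in PCDHB4 and PCDHB15, which stayed between 0.30 and 1.1 CPM, and in PCDHB10, which did not pass the test over the 5 groups. Whether the string goes with level or difference was not tested. In the next lines, CGCTGT is in capitals in 3 gamma promoters, those of the highest isoform, of one that rose and of one that fell. PCDHGB7, the other member that fell in each clone, does not hold CGCTGT in its window.
PCDHGC3 (chr5:141475876-141475921): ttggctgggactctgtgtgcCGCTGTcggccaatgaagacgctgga
PCDHGB1 (chr5:141350021-141350066): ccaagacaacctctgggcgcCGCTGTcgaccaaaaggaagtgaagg
PCDHGA10 (chr5:141412927-141412972): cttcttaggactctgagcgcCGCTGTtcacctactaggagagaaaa
Of the beta members without GGCGCTGC, PCDHB14 was tested and is described below. PCDHB11 and PCDHB6, also discussed below, are among the members without a matched promoter.

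The gamma rows have to be read in the light of the shared exons. In the GENCODE 29 annotation, 2181 exonic bases belong to all 22 gamma genes at once, and in the table the 22 gamma rows of a library were nearly the same number. In the first control library the lowest gamma row stood at 85.5 CPM and in the second at 86.2. The lowest row was 76.0 and 85.4 CPM in D4, 96.3 and 97.8 in G4, 76.6 and 79.1 in G10, with 91.6 and 88.1 in H3. It made up 95.2% to 96.5% of the mean of the 22 rows, and in every library 14 to 19 of the 22 rows lay within 20 reads of it. The rows therefore hold a common part, called the shared level here, and the isoform-specific signal of a gamma member was taken as its reads above the lowest gamma row of the same library. This step was chosen after the values had been seen, and how the authors counted reads in shared exons is not given in the sources used here.

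**Figure D1:**
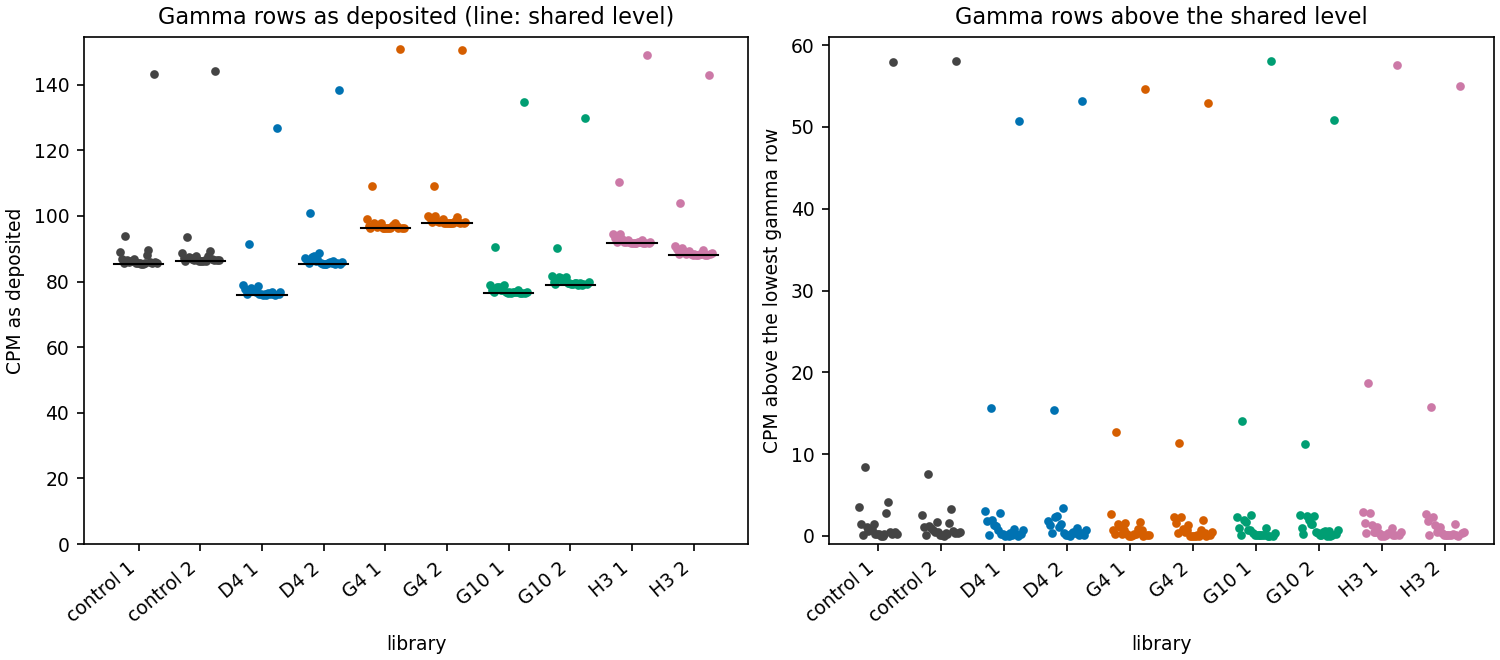
The 22 gamma rows in each of the 10 libraries (x axis), as deposited in CPM (left, black line: lowest row of the library) and as CPM above that lowest row (right); colours mark the 5 groups. On the left nearly all points lie on the line, between 76.0 and 97.8 CPM, and on the right PCDHGC3, at 50.7 to 58.1 CPM, and PCDHGB1, at 7.57 to 18.6 CPM, stand apart from the other rows.

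Reads in exons shared by all gamma isoforms do not show which isoform they come from. Its mean was 85.8 ± 0.50 CPM (SD, n = 2) in the control, 80.7 ± 6.62 in D4, 97.0 ± 1.05 in G4, 77.8 ± 1.76 in G10 against 89.9 ± 2.47 in H3. G4 was the highest group and did not overlap any other, whereas the 2 libraries of D4 lay farther apart than the means of the control and G10. In the limma fit of the rows as deposited, with Benjamini-Hochberg adjustment over 17664 genes, 21 of the 22 gamma rows differed between the 5 groups, against 73.3% of all genes tested. These 21 calls rest on the same reads counted once per row, so they are 1 observation and not 21. Without the second G4 library 7 of the 22 gamma rows passed, and with the deviation of neighbouring genes (those within 5 Mb) subtracted 0 did, where the 10 members that passed were all beta genes. As deposited, 21 of 22 gamma rows were lower in D4 than in G4 (39.5% of all genes differed), 22 of 22 were higher in G4 than in G10 (38.1%), and 19 of 22 were lower in G10 than in H3 (39.5%). Against the control, 0 of the 22 rows passed for the mean of the 4 clones, where the number at an unadjusted p under 0.05 was also 0 and limma-voom on the estimated reads gave 0. For G4 alone, 1 of the 22 rows passed and 19 were higher at an unadjusted p under 0.05, and scaling by size factors gave 19 calls. The 71 genes outside the clusters within 5 Mb were also highest in G4. Their median log2 difference from the control was 0.16 in G4, 0.01 in H3, -0.05 in D4 and -0.05 in G10. In the same order of clones, the gamma rows had medians of 0.17, 0.07, -0.09 and -0.14. All genes tested had medians of -0.04, 0.01, -0.06 and 0, so beyond G4 the order of the clones is not read as shared.

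Alpha isoforms were at the edge of detection in every library. Each of the 16 alpha rows stayed between 0 and 0.35 CPM, and no row had more than 4 reads in any library. In 7 of the 10 libraries every one of the 15 protein-coding alpha rows held at least 1 read, and the annotation gives these 15 genes 2866 exonic bases in common. In the first D4 library and both G4 libraries, a single protein-coding row held 1 read, PCDHA10, PCDHA7 and PCDHA5 in turn, and the others were at 0. The pseudogene PCDHA14 held 1 read, in the first D4 library. All of its 50-base stretches also occur in PCDHA10, whose 1 read in that library may be the same read. The C-type isoforms, PCDHAC1 and PCDHAC2, the latter known in mouse for the spacing of serotonergic axons, reached 0.20 CPM at most. At this depth no difference between colonies was detectable for the alpha cluster, and 0 of its rows passed the filter of 1 CPM in 2 libraries. Together 34 of the 54 members passed that filter as deposited, 12 beta and 22 gamma, and with the shared level removed 11 gamma members did.

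The colonies had most of the isoforms they used in common. With a member counted as on when both libraries of a colony reached 1 CPM, gamma members being read above the shared level, the control had 9 beta and 8 gamma members on, D4 11 and 8, G4 10 and 6, G10 11 and 6, and H3 11 and 8. The 8 beta members on in all 5 colonies were PCDHB2, PCDHB5, PCDHB6, PCDHB7, PCDHB8, PCDHB11, PCDHB13 and PCDHB14, and the 5 gamma members were PCDHGC3, PCDHGB1, PCDHGA1, PCDHGA4 and PCDHGA6. PCDHGA10 was on in the control colony and in no clone. PCDHGB7 was on in the control, G4 and H3. PCDHB16 was on in the 4 clones, and in the control it reached 1 CPM in 1 of 2 libraries. PCDHB12 was on in D4, G10 and H3, PCDHGB2 in the same 3, PCDHB9 in all but G4, PCDHB10 in G4, PCDHGA2 in the control, D4 and H3, and PCDHGA5 in D4. At a limit of 0.5 CPM, PCDHB9, PCDHB10, PCDHB12, PCDHB16, PCDHGA2, PCDHGB2 and PCDHGB7 were on in all 5 colonies. PCDHGA10 was then on in the control and G4, and PCDHGA5 in the control, D4 and G10. These on and off calls therefore depend on the limit. PCDHB1 was listed at 0 in all 10 libraries, and PCDHB3, PCDHB4 and PCDHB15 stayed between 0.20 and 1.1 CPM. The 11 gamma members outside the tested set ran from 0 to 0.73 CPM above the shared level, PCDHGC4, needed for neuronal survival in mouse, and PCDHGC5 among them.

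**Figure D2:**
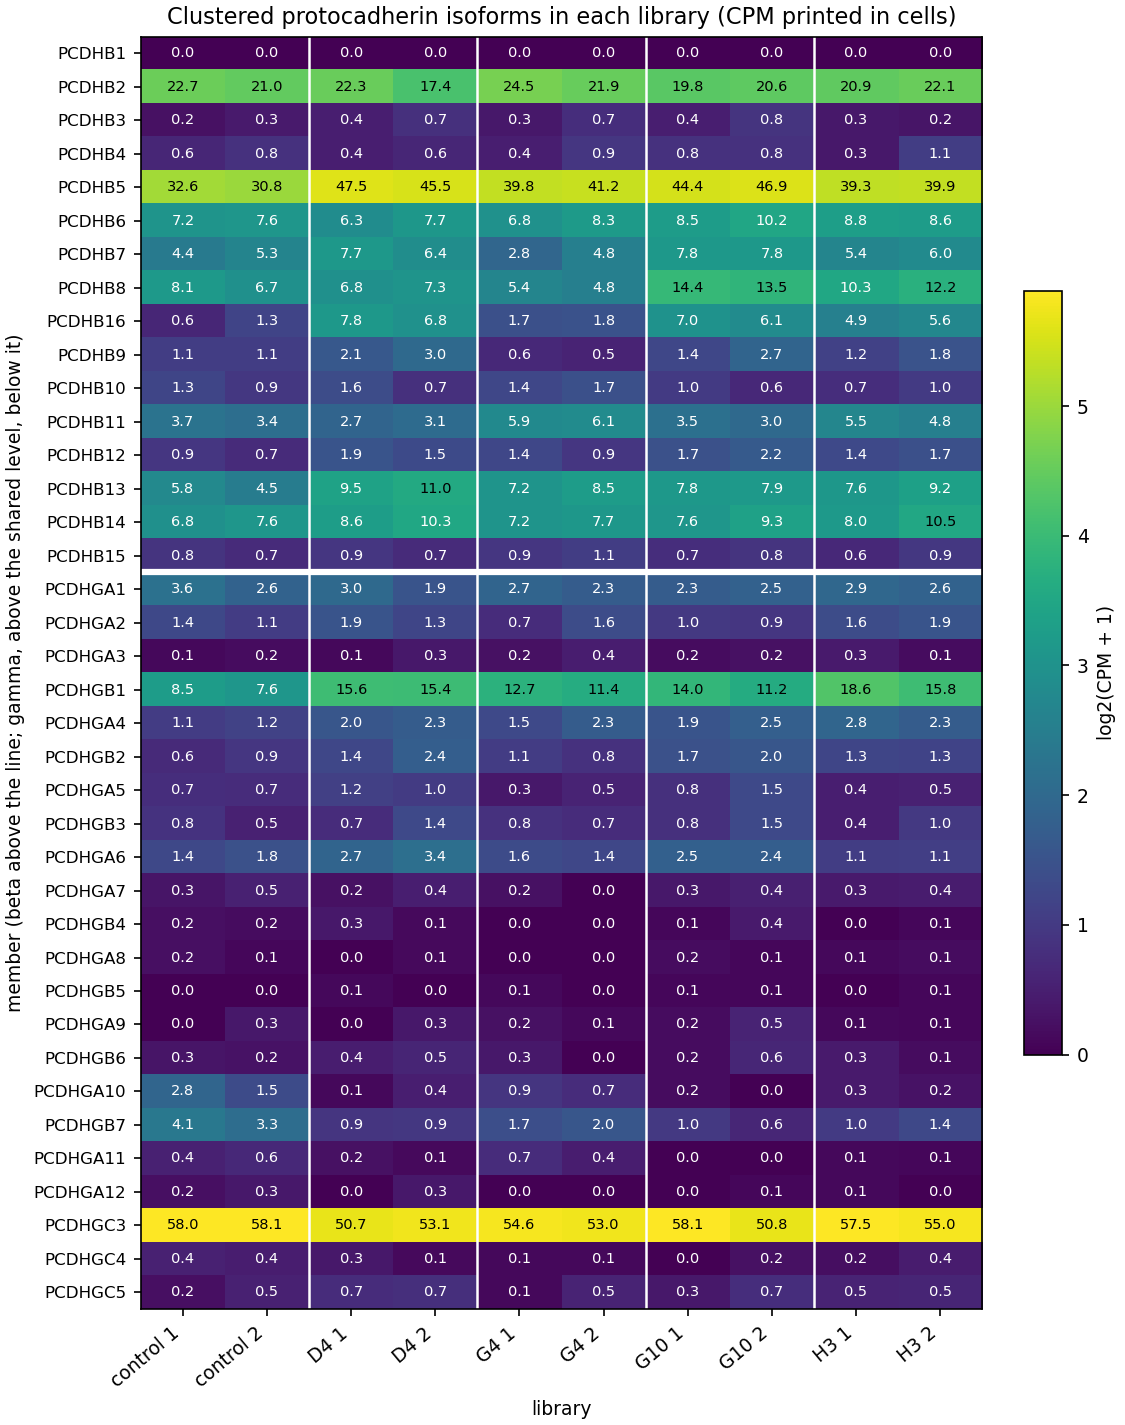
CPM of the 16 beta members (above the white line) and, as CPM above the shared level, of the 22 gamma members (below it) in each of the 10 libraries; colour is log2(CPM + 1) and the printed number is CPM. PCDHB5, PCDHB2 and PCDHGC3 are bright in every column, and PCDHB16 is dark in the control and G4 columns and brighter in D4, G10 and H3.

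PCDHB5 (chr5:141135218-141138625, plus strand, GENCODE 29) had the highest level of the beta cluster in each of the 10 libraries, both in CPM and per kilobase of exon. PCDHB5 stood at 32.6 and 30.8 CPM in the control libraries, 47.5 and 45.5 in D4, 39.8 and 41.2 in G4, 44.4 and 46.9 in G10, with 39.3 and 39.9 in H3. Every clone library lay above both control libraries, and D4 and G10 lay above G4 and H3. PCDHB2 ran from 17.4 to 24.5 CPM over the 10 libraries, and its clone and control values overlapped. PCDHB5 held 31.7% to 37.5% of the summed beta CPM and PCDHB2 14.2% to 23.4%, with no correction for length. Per kilobase of exon, the mean level over all libraries was 12.0 CPM for PCDHB5, 5.17 for PCDHB2, 3.27 for PCDHB8, 2.45 for PCDHB6 and 1.74 for PCDHB14. In G10 PCDHB8, at 5.10 CPM per kilobase, stood beside PCDHB2, at 4.90, so the order of these neighbours was not the same in every colony. PCDHB13 (1.56), PCDHB7 (1.56) and PCDHB11 (1.00) followed, then PCDHB16 (0.88), and no other beta member exceeded 0.37 CPM per kilobase. The summed beta CPM was 94.8 ± 2.91 (SD, n = 2) in the control, 124.8 ± 2.71 in D4, 108.8 ± 3.22 in G4, 130.2 ± 4.70 in G10 against 120.7 ± 7.45 in H3, so that no clone overlapped the control.

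PCDHB16, PCDHB13, PCDHB12 and PCDHB5 were the beta isoforms that rose for the mean of the clones. For the mean of the 4 clones against the control, limma on log2(CPM + 1) called 40.2% of all 17664 genes, 18.2% higher and 22.0% lower. Of the 12 beta members tested, 4 were higher and none was lower, also at an unadjusted p under 0.05. PCDHB12 passed the filter on low values through the clone libraries alone and PCDHB16 through them and 1 control library, so their place in the tested set favoured a rise, and nothing is read from the count. With a mean of at least 5 CPM required, 2 of 7 beta members were higher. The median log2 difference was 0.24 over the 12 beta members and -0.02 over all genes tested. In the single clones, 5 beta members rose in D4 (17.5% of all genes rose), 4 rose and 1 fell in G4 (10.9% and 16.4%), 6 rose in G10 (17.8%) and 6 rose in H3 (23.9%). PCDHB5, PCDHB13 and PCDHB16, 3 of the 12, were higher in each of the 4 clones, as were 2.81% of all genes, and no beta member was lower in each, beside 3.90%. In G4 all 3 calls were lost when the deviation of neighbouring genes was subtracted, at limma adjusted p of 0.174 for PCDHB5, 0.12 for PCDHB13 and 0.179 for PCDHB16. The 4 contrasts share the 2 control libraries. With 1 library left out, the number of beta members called higher fell to 3 in D4 and 1 in H3 (each without the second control library), to 3 in G10 (without the second G10 library) and to 0 in G4 (without the second G4 library).

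PCDHB16 (chr5:141181399-141186399, plus strand) had the largest difference of the beta cluster. It stood at 0.55 and 1.30 CPM in the control libraries, 7.85 and 6.85 in D4, 1.70 and 1.80 in G4, 7.05 and 6.15 in G10, with 4.95 and 5.65 in H3. No clone library overlapped the control, and G4 lay between the control and the other 3 clones. The control values rest on 6 and 17 reads, and the D4, G10 and H3 values on 59 to 93. On the log2(CPM + 1) scale the mean of the clones was higher by 1.61 ± 0.15 (SE, limma adjusted p = 6.75e-07), with D4 higher by 2.14, G10 by 2.01 and H3 by 1.74. These calls held whichever library was left out, with adjusted p at most 9.77e-05. In G4 the difference was 0.54 ± 0.19 (limma adjusted p = 0.0465), and the adjusted p rose to 0.0520 or more without any of 7 of the 10 libraries and to 0.429 without the first control library. AC244517.4, AC244517.6 and AC244517.8, rows annotated as other genes, overlap PCDHB16. In the order control, D4, G4, G10 and H3, the antisense row AC244517.4 had means of 0.5, 2.65, 0.75, 2.5 and 2.02 CPM. AC244517.6 had 0.475, 1.6, 0.45, 1.4 and 1.2, and AC244517.8 had 1.5, 1.2, 0.9, 2.2 and 2.57. The strand setting of the counting is not given in the sources used here, so reads of these rows and of PCDHB16 cannot be told apart. Of the 50-base stretches of PCDHB16 transcripts, 11.3% also occur in another protocadherin gene.

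PCDHB5 was higher by 0.43 ± 0.07 for the mean of the clones (limma adjusted p = 8.32e-05), by 0.54 in D4, 0.51 in G10, 0.34 in G4 and 0.31 in H3. The calls in D4 and G10 held with each library left out. In G4 the limma adjusted p rose from 0.00536 to 0.0538 without the second control library and to 0.0515 without the second G4 library, and in H3 from 0.00532 to 0.0510 without the second control library. An antisense row, AC244517.11, overlaps PCDHB5 and stood at 5.2 CPM in both control libraries and at 6.70 to 11.39 in the clones. PCDHB13 (chr5:141213919-141218979, plus strand) stood at 5.85 and 4.55 CPM in the control libraries, 9.55 and 10.99 in D4, 7.20 and 8.50 in G4, 7.79 and 7.90 in G10, with 7.65 and 9.19 in H3. All clone libraries lay above both control libraries. The mean difference was 0.63 ± 0.12 (limma adjusted p = 0.000692, at most 0.0365 with a library left out). For G4, G10 and H3 the PCDHB13 call was lost without the second control library, at limma adjusted p of 0.186, 0.149 and 0.063, and also without the second library of the clone itself, at 0.157, 0.0528 and 0.0588. PCDHB12 ran from 0.65 to 0.90 CPM in the control and from 0.90 to 2.2 in the clones, on 8 to 31 reads. Its mean difference of 0.54 (limma adjusted p = 0.0104) was lost without the second control library (0.138). PCDHB12 entered the tested set through clone libraries alone, so nothing is read from its p-values.

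Other beta members divided the clones. PCDHB8 stood at 8.15 and 6.70 CPM in the control libraries, 6.80 and 7.29 in D4, 5.45 and 4.85 in G4, 14.4 and 13.5 in G10, with 10.3 and 12.2 in H3. G10 and H3 lay above both control libraries, G4 lay below both, and D4 lay between them. The log2 differences were 0.84 ± 0.14 in G10 (limma adjusted p = 0.000268), 0.54 ± 0.14 in H3 (0.0053), -0.45 ± 0.14 in G4 (0.0279) and -0.06 ± 0.14 in D4 (0.766). Without 1 library the limma adjusted p for PCDHB8 stayed at or under 0.00645 in G10, but reached 0.0735 in H3 without the second H3 library and 0.0711 without the second control library. In G4 it reached 0.227 without the first control library, 0.159 without the second G4 library and 0.0601 without the first. PCDHB8 shares 45.8% of its 50-base stretches with other protocadherin genes, most of them with PCDHB13, so reads of the 2 genes may be divided by the counting. PCDHB11 ran from 5.95 to 6.15 CPM in G4 and from 4.85 to 5.55 in H3, above all libraries of the control, D4 and G10, which ran from 2.75 to 3.70. Its differences of 0.63 in G4 (limma adjusted p = 0.00745) and 0.45 in H3 (0.0307) were lost with 1 library left out. In G4 the limma adjusted p rose to 0.0576 without the second control library and 0.0501 without the second G4 library. In H3 it rose to 0.183 and 0.054 without the first or second H3 library and to 0.0705 and 0.141 without the first or second control library. PCDHB9 ran from 2.10 to 3.05 CPM in D4, from 0.50 to 0.60 in G4 and stood at 1.1 in both control libraries. Against the control it was called in D4 only (0.76, limma adjusted p = 0.014, but 0.130 without the second D4 library and 0.0546 or 0.0551 without a control library). PCDHB7 was called against the control in G10 only, at 7.79 and 7.80 CPM beside 4.4 and 5.30 (0.59, limma adjusted p = 0.0203). That call was lost at 0.140 without the first control library and at 0.0604 or 0.0659 without a G10 library. D4 stood at 7.75 and 6.45 CPM (0.47, limma adjusted p = 0.0552), and passed under 5 alternatives, size factors, the replicate block, subtraction of neighbouring genes and the omission of either G4 library. PCDHB2, PCDHB6, PCDHB10 and PCDHB14 did not pass the test over the 5 groups, with limma adjusted p between 0.142 and 0.411. PCDHB6 ran from 6.30 to 10.24 CPM, PCDHB14 from 6.80 to 10.54 and PCDHB10 from 0.60 to 1.70.

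**Figure D3:**
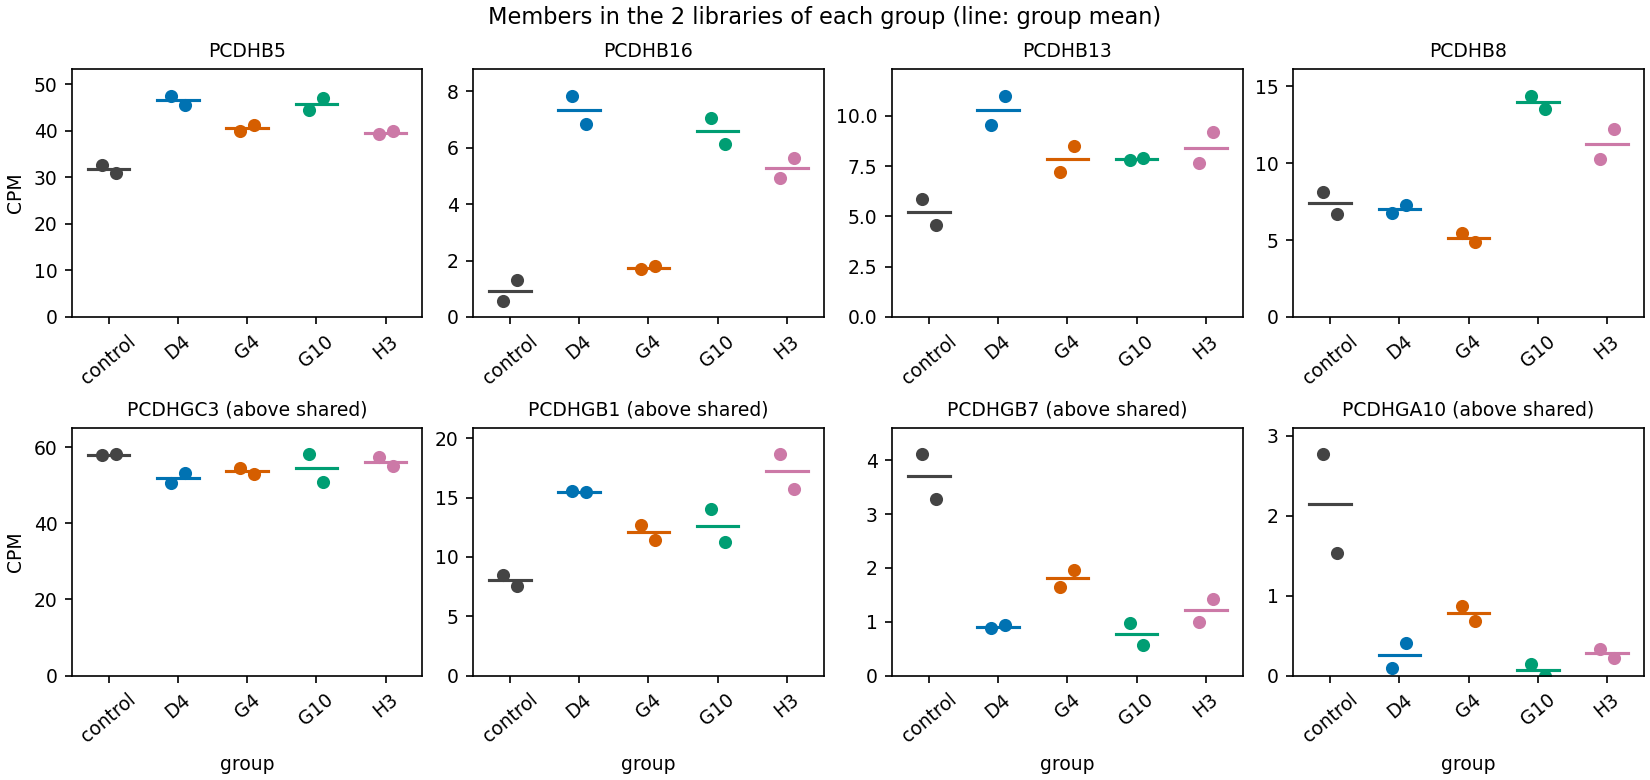
CPM of 4 beta members (top) and, above the shared level, of 4 gamma members (bottom) in the 2 libraries of each of the 5 groups (x axis); points are libraries and lines are group means. PCDHB16 is at 0.55 and 1.30 CPM in the control and up to 7.85 in D4, PCDHGB7 and PCDHGA10 are highest in the control, and PCDHGC3 lies between 50.7 and 58.1 CPM in all groups.

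In the gamma cluster, PCDHGC3 carried most of the isoform-specific signal in every library. This C-type isoform, known in mouse cortical neurons for binding AXIN1, stood above the shared level by 58.0 and 58.1 CPM in the control libraries, 50.7 and 53.1 in D4, 54.6 and 53.0 in G4, 58.1 and 50.8 in G10, with 57.5 and 54.96 in H3. The first G10 library reached the control level, and the 2 libraries of G10 lay farther apart than any pair of group means. PCDHGC3, whose first exon starts at chr5:141475947, held 61.3% to 70.6% of the summed signal above the shared level and 16.9 CPM per kilobase of its own exon. The mean difference was -0.10 ± 0.07 (limma adjusted p = 0.236), and between the 5 groups the adjusted p was 0.426. The sum of all gamma members above the shared level was 83.8 ± 2.02 CPM (SD, n = 2) in the control, 84.5 ± 3.07 in D4, 79.1 ± 1.61 in G4, 82.2 ± 4.65 in G10 against 87.5 ± 3.57 in H3.

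PCDHGB1 came next in the gamma cluster, at 5.05 CPM per kilobase of its own exon, with every other gamma member at 0.73 or less. Above the shared level it stood at 8.49 and 7.57 CPM in the control libraries, 15.6 and 15.4 in D4, 12.7 and 11.4 in G4, 14.0 and 11.2 in G10, with 18.6 and 15.8 in H3. Every clone library lay above both control libraries. The mean difference was 0.75 ± 0.11 (limma adjusted p = 4.29e-05), with 0.87 in D4, 0.59 in G10, 0.53 in G4 and 1.01 in H3. With a library left out the adjusted p of the limma test was at most 0.00265 for the mean and at most 0.0355 in D4, G10 and H3, while in G4 it reached 0.0776 without the first G4 library and 0.0669 without the second control library. An annotated antisense row, AC005618.4, overlaps PCDHGB1 and ran from 2.00 to 3.15 CPM in the control and from 3.05 to 4.60 in the clones. Whether the counting used strand is not given in the sources used here, so reads of this pair cannot be told apart.

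A neighbouring pair, PCDHGA10 and PCDHGB7, was lower in each of the 4 clones. PCDHGB7 stood above the shared level by 4.11 and 3.29 CPM in the control libraries, 0.88 and 0.93 in D4, 1.65 and 1.97 in G4, 0.98 and 0.56 in G10, with 1.00 and 1.43 in H3. No clone library reached the control, and G4 kept the highest level of the clones. PCDHGA10 stood at 2.77 and 1.53 CPM in the control libraries, 0.10 and 0.41 in D4, 0.87 and 0.69 in G4, 0.15 and 0 in G10, with 0.33 and 0.23 in H3, with no overlap either. These are 31 and 20 reads for PCDHGA10 in the control and 0 to 9 in the clones, and 46 and 43 for PCDHGB7 in the control against 8 to 20. The mean log2 difference was -1.13 ± 0.15 for PCDHGB7 (limma adjusted p = 2.78e-05) and -1.23 ± 0.18 for PCDHGA10 (4.85e-05). With a library left out, the limma adjusted p of PCDHGB7 was at most 0.0024 for the mean and 0.00664 in D4, G10 and H3, and that of PCDHGA10 at most 0.00505 and 0.00613. In G4 both calls were lost without the first control library, at limma adjusted p of 0.0987 for PCDHGB7 and 0.188 for PCDHGA10, as they were without the first G4 library (PCDHGB7, 0.0784) or the second (PCDHGA10, 0.0882). PCDHGA10 passed the filter through the control libraries alone, so its place in the tested set required a difference, and nothing is read from its p-values.

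Of the 11 gamma members tested above the shared level, 3 were higher and 2 lower for the mean of the clones, beside 18.2% and 22.1% of the 17653 genes in that fit. Like PCDHGA10 through the control, PCDHGB2, PCDHGA5 and PCDHGB3 passed the filter through clone libraries alone. Nothing is therefore read from these counts or from the p-values of these members. Besides PCDHGB1, the members that rose were PCDHGA4 and PCDHGB2, its next neighbours in gene order. PCDHGA4 ran from 1.07 to 1.22 CPM in the control and from 1.46 to 2.76 in the clones, and PCDHGB2 from 0.63 to 0.92 and from 0.79 to 2.38, so that its clone and control values overlapped through G4. Their mean differences were 0.55 (limma adjusted p = 0.00911) and 0.47 (0.0284), and both were lost without the first control library, at 0.0971 and 0.264, and PCDHGB2 also without the second (0.0568). PCDHGA6 stood at 2.75 and 3.42 CPM in D4 against 1.43 and 1.76 in the control, a difference of 0.65 (limma adjusted p = 0.0071, but 0.0693 without the second D4 library and 0.0655 without the first control library). PCDHGA1, PCDHGA2, PCDHGA5 and PCDHGB3 were called in no contrast with the control. PCDHGA1 ran from 1.87 to 3.57 CPM over the 10 libraries, PCDHGA2 from 0.68 to 1.88, PCDHGA5 from 0.29 to 1.47 and PCDHGB3 from 0.42 to 1.47. In single clones, 4 gamma members rose and 2 fell in D4, 1 rose and 2 fell in G4, 3 rose and 2 fell in G10, and 2 rose and 2 fell in H3, beside 17.5%, 10.9%, 17.9% and 23.9% of all genes that rose and 23.8%, 16.5%, 19.2% and 22.2% that fell. PCDHGB1 rose and PCDHGA10 and PCDHGB7 fell in each clone, as did 2.82% and 3.91% of all genes. With 1 library left out, the number that rose fell to 1 in D4 (second D4 library), 1 in G10 (second G10 library), 1 in H3 (first H3 library), 0 in G4 (first G4 library) and 1 for the mean (first control library).

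**Figure D4:**
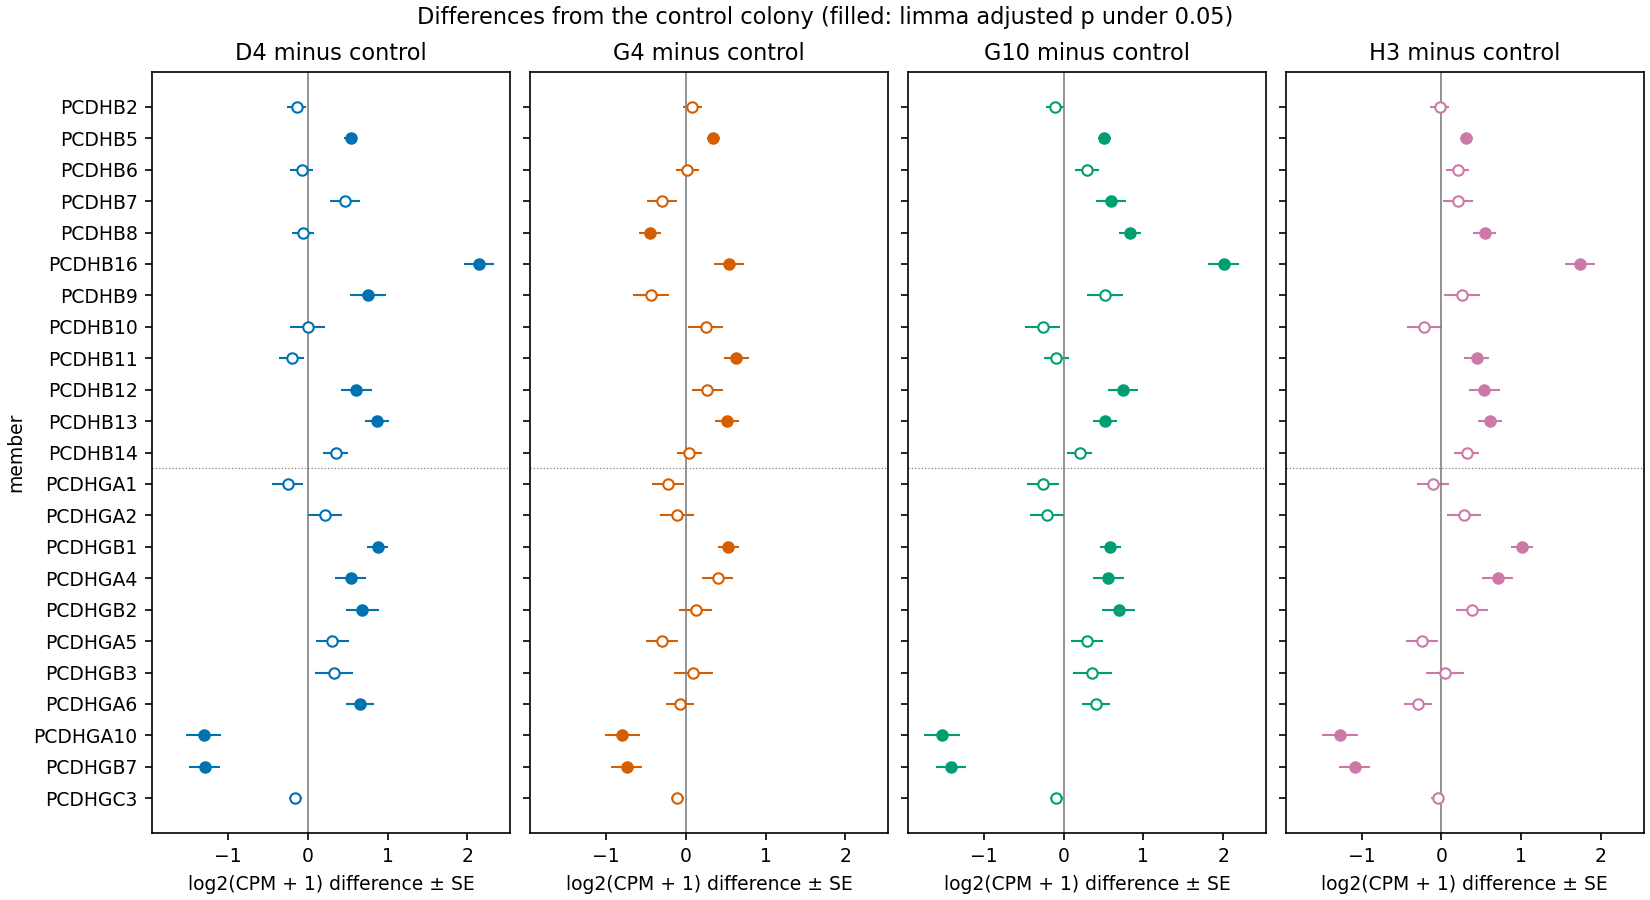
Difference of each clone from the control colony on the log2(CPM + 1) scale (x axis; bars are 1 SE of the limma fit) for 12 beta members and 11 gamma members above the shared level (y axis); filled points have a limma adjusted p under 0.05. PCDHB16 is far to the right in D4, G10 and H3 (2.14, 2.01 and 1.74), PCDHGA10 and PCDHGB7 are to the left in all 4 panels, and PCDHGC3 and PCDHB2 lie near 0.

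The clones also differed among themselves. In the limma F test over the 4 clones, 6 of 12 beta members and 5 of 11 gamma members above the shared level passed. Beside them stood 67.3% and 67.2% of all genes. Some members entered the tested set through clone libraries alone, so nothing is read from these counts or from those of the pairs below. Over the 6 pairs of clones, 19 of 72 beta comparisons (26.4%) and 15 of 66 gamma comparisons (22.7%) passed, beside 38.3% of all gene-by-pair comparisons. By pair, 5 beta members differed between D4 and G4 (39.5% of all genes), 5 between G4 and G10 (38.1%), 4 between G4 and H3 (45.0%), 3 between D4 and H3 (38.3%) and 1 between G10 and H3 (39.5%). Between D4 and G10, PCDHB8 was the one beta member called (-0.90 in D4 minus G10, limma adjusted p = 0.000211), beside 29.5% of all genes, and between G10 and H3 it was PCDHB11 (-0.54, 0.0135). No gamma member was called between D4 and G10 by limma, and 1 of 11 had an unadjusted p under 0.05. G4 stood apart from D4, G10 and H3 in PCDHB16, with D4 higher than G4 by 1.6 (limma adjusted p = 7.43e-06), and G4 minus G10 at -1.46 (2.06e-05) and G4 minus H3 at -1.19 (0.000103). PCDHB8 and PCDHB9 were also lower in G4 than in each of the other 3 clones. PCDHB7 stood at 2.85 and 4.85 CPM in G4, below every library of D4, G10 and H3, which ran from 5.45 to 7.80. PCDHGB1 separated H3 from G4 (G4 minus H3 -0.475, limma adjusted p = 0.00874) and from G10 (G10 minus H3 -0.42, 0.0204). G4, lowest in KRT5, is also the clone whose summed squamous markers were nearest to the control, and H3 the one with highest LUM. The part of either in these values was not tested.

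The isoform pattern was nearly constant between the 2 libraries of a colony. Over the 16 beta members, Pearson's r of log2(CPM + 1) was 0.985 to 0.992 for the 5 pairs of libraries of the same colony and 0.903 to 0.989 for the 40 pairs from different colonies. These correlations are across members, which are not independent replicates, and PCDHB5, PCDHB2 and the unexpressed PCDHB1 carry much of them. Without those 3 members, r was 0.969 to 0.984 within a colony and 0.770 to 0.978 between colonies. The mean absolute log2 difference between 2 libraries over the 16 beta members was 0.17 to 0.22 within a colony and 0.19 to 0.57 between colonies. Over the 22 gamma members above the shared level it was 0.13 to 0.23 within and 0.18 to 0.50 between. The ranges overlap, and by this measure the closest library was the colony's own other library for 8 of 10 libraries with the beta members and 6 of 10 with the gamma members. Among the exceptions, the second D4 library was closest to the second G10 library in both clusters, and the second H3 library was closest to the first G10 library in the beta cluster.

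**Figure D5:**
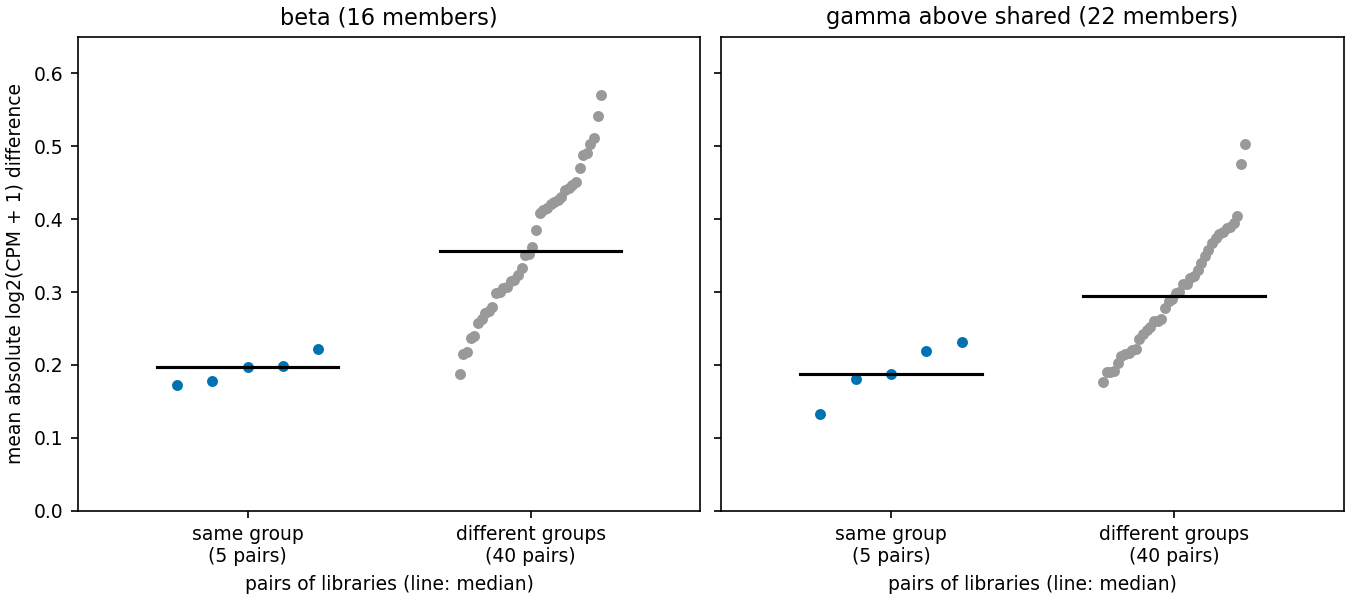
Mean absolute difference in log2(CPM + 1) between 2 libraries (y axis) over 16 beta members (left) and 22 gamma members above the shared level (right), for the 5 pairs of libraries of one colony and the 40 pairs from different colonies; lines are medians. Same-colony pairs lie at 0.13 to 0.23, at the lower end of the different-colony pairs, which reach 0.57 for beta and 0.50 for gamma.

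Most of the spread within a colony was of the size that read counting gives. Among members with at least 20 reads, 4 of 61 beta and 3 of 42 gamma comparisons between the 2 libraries of a colony differed by more than 2 counting standard deviations. Written as second minus first library in counting standard deviations, these were PCDHB2 in D4 (-2.43), PCDHB7 in G4 (2.32), PCDHB9 in G10 (2.53), PCDHB14 in H3 (2.06), PCDHGC3 in G10 (-2.6), PCDHGB1 in G10 (-2.04) and PCDHGA10 in the control (-2.05). The counting error covers the reads only, since no molecular identifiers enter the values. Members that were on in 1 library of a colony and not in the other were PCDHB16 and PCDHB10 in the control, PCDHB10 and PCDHGB3 in D4, PCDHB12, PCDHB15, PCDHGA2 and PCDHGB2 in G4, PCDHGA5 and PCDHGB3 in G10, and PCDHB4 in H3. The widest by ratio was PCDHB4 in H3, at 0.30 and 1.1 CPM on 3 and 14 reads.

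Genes around and beyond the clusters give the setting. Of 12 protocadherins outside the clusters, 8 were tested and 3 were lower for the mean of the clones, beside 22.0% of all genes that were lower. PCDH1, an epithelial protocadherin, stood at 408.5 ± 11.03 CPM (SD, n = 2) in the control, 238.5 ± 4.08 in D4, 448.3 ± 5.92 in G4, 203.4 ± 0.42 in G10 against 181.2 ± 12.3 in H3. Its mean difference was -0.70 ± 0.05 (limma adjusted p = 1.78e-08), and G4 did not follow the other 3 clones (0.13, adjusted p = 0.114). PCDH9 (-0.59, limma adjusted p = 0.000647) and PCDH20 (-0.62, 0.00246) were the others. Of 28 genes tested in a list of neighbours outside the clusters, 1 rose and 5 fell for the mean of the clones, beside 18.2% and 22.0% of all genes. HBEGF, which encodes a ligand of the epidermal growth factor receptor, fell from 26.2 CPM in the control to 5.62 in D4, 9.02 in G10 and 3.42 in H3, whereas G4 stood at 32.2 (mean difference -1.45, limma adjusted p = 1.08e-08). RELL2 (-0.30, limma adjusted p = 0.00899), FCHSD1 (-0.28, 0.00224) and RNF14 (-0.21, 0.0217) were the next by size. In D4, 0 of the neighbours were higher and 10 lower, beside 17.5% and 23.8% of all genes. In G4, 8 were higher and 0 lower, beside 10.9% and 16.4%. In G10, 1 was higher and 9 lower, beside 17.8% and 19.1%, and in H3, 3 were higher and 6 lower, beside 23.9% and 22.1%.

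Of 14 genes for CTCF, cohesin and its regulators, 1 rose and 2 fell for the mean of the clones, beside the 40.2% of all genes called. CTCF stood at 107.7 ± 4.0 CPM in the control and 95.4 to 104.5 in the clone means (-0.10, limma adjusted p = 0.185), and RAD21, the cohesin subunit that is cut at anaphase, at 422.6 ± 20.6 and 436.1 to 521.3 (0.13, adjusted p = 0.0847). ESCO1, an acetyltransferase that acts on cohesin, was lower in each clone, at 26.3 CPM in the control and 14.2 to 20.2 in the clones (-0.56, limma adjusted p = 0.000203). The cohesin subunits STAG1 (-0.32, limma adjusted p = 0.00128) and SMC1A (0.22, 0.0044) moved in opposite directions. Of 18 genes for DNA methylation and silencing, 4 rose and 2 fell, beside 18.2% and 22.0% of all genes. TET1, which oxidises methylcytosine, stood at 1.07 CPM in the control and 1.30 to 3.87 in the clones (0.66, limma adjusted p = 0.00145), and DNMT3B, a DNA methyltransferase, at 8.57 and 7.72 to 21.96 (0.45, 0.00658). MBD1, which binds methylated DNA, was lower in each clone (-0.49, limma adjusted p = 6.98e-06), and LRIF1, a partner of SMCHD1, was lower for the mean (-0.61, 0.00156). SMCHD1, which silences clustered protocadherins in mouse, stood at 129.8 CPM in the control and 113.0 to 139.2 in the clones (-0.09, limma adjusted p = 0.347). Of 21 genes tested for protocadherin partners and processing, 6 rose and 7 fell, beside the same 18.2% and 22.0%. PRKCA, protein kinase C alpha, was lower (-0.83, limma adjusted p = 2.58e-07), while the kinase FYN was higher (0.60, 5.64e-06). AXIN1, a scaffold of beta-catenin breakdown, was lower for the mean (-0.62, limma adjusted p = 0.031). AXIN1 was not called in G4 (0.075, limma adjusted p = 0.844) or in G10 (-0.48, 0.141).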

How the data were processed

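RNA from 10 KYSE-410 libraries was sequenced, per the labels' protocols from total RNA with a NuGen Ovation Solo kit. The submitters' processing notes name STAR 2.5.3a, HTSeq and hg38. The authors deposited CPM per gene. The values step as whole reads scaled up to a common total would, and undoing this step explained 99.8% to 99.91% of values per library exactly and gave the estimated reads (tested on simulated data). Positions and exons are from GENCODE 29.

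The test covered genes that reached 1 CPM in 2 or more libraries, on log2(CPM + 1) using limma 3.58.1 in R 4.3.3 (trend, robust, 1 coefficient per group, 5 residual degrees of freedom), adjusted by Benjamini-Hochberg over all genes at 0.05. Fold differences on this scale understate the change of low genes. The members and gene lists were chosen with earlier results of these data known. Members at 1 CPM or more in both libraries of a group, or passing the test over the 5 groups, are named, with CTCF, RAD21, SMCHD1 and up to 4 passing genes of largest change per list. One gene that this rule names is not reported here. Counting intervals and floors cover counting error only. Alternatives were other scaling, pseudocount 0.1, other filters, limma-voom, a replicate block, subtraction of neighbouring genes, the clone as the unit and leaving out each library (for single members, in the fit with shared gamma reads subtracted).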

Additional observations from a re-analysis of the deposited data

Results flagged for a closer look

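Differences between the knock-out clones themselves drew attention, since the 4 carry edits of the same gene. The limma F test over the 4 clones, adjusted over all genes, passed for PCDHB8 (4.93e-06), PCDHB16 (1.01e-05), PCDHB11 (0.000489), PCDHB9 (0.00147), PCDHB7 (0.00269) and PCDHB5 (0.0437). Above the shared level it passed for PCDHGA6 (0.000677), PCDHGB1 (0.0137), PCDHGA5 (0.0174), PCDHGB7 (0.0273) and PCDHGA10 (0.0464). PCDHGA5 passed the filter through D4 and G10 libraries alone, so its place in the tested set favoured a difference between clones. PCDHGA10 passed the filter through the control alone and held 0 to 9 reads in the clones. Nothing is read from the p-values of PCDHGA5 and PCDHGA10. As deposited, all 22 gamma rows passed, on reads they share.

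Some rows that lie in the clusters and are not members were above both control libraries in at least 1 clone, and only rises were looked for. Other such rows did not meet this in any clone. Among these was AC244517.10, at 1.55 and 1.80 CPM in the control libraries and 0.949 in both G10 libraries. For the rows that rose, the highest clone means were 10.5 CPM for AC244517.11 in G10, 4.52 for AC005618.4 in D4, 2.67 for AC244517.2 in G10, 2.65 for AC244517.4 in D4, 2.57 for AC244517.8 in H3, 1.6 for AC244517.6 in D4 and 0.475 for the pseudogene PCDHB17P in G10. The first 6 overlap beta or gamma members, among them PCDHB5, PCDHB16 and PCDHGB1, and whether they hold the same reads was not tested.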

How the results depend on the processing

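Counts below are of members as deposited. Of 161 counts under other settings, 130 stayed within 1.5 times the main count, and no single member's called difference reversed. With shared gamma reads subtracted (chosen after the data were seen), 15 members instead of 29 passed between the 5 groups, 9 instead of 4 for the mean of the clones, 11 instead of 5 in D4, 11 instead of 6 in G10, and 34 instead of 81 between clone pairs. With shared gamma reads subtracted, the number on in a colony fell to 17 (control), 19 (D4), 16 (G4), 17 (G10) and 19 (H3), and 11 instead of 6 were on in 1 library only. As deposited, a limit of 2 CPM gave 2 of these. With neighbouring genes subtracted, 10 passed between groups, 2 in G4 and 29 between pairs. Size factors gave 24 instead of 6 in G4. A mean of at least 5 CPM gave 2 for the mean, 2 in D4 and 4 in H3, and no filter gave 4 instead of 7 in H3. With the clone as the unit, limma called 0 members (1 at an unadjusted p under 0.05) and 0 of 17664 genes (693). Leaving out 1 library gave 15 to 30 between groups, 3 to 6 in D4, 1 to 6 in G4, 3 to 7 in G10, 1 to 7 in H3 and 41 to 95 between pairs. The cause of these shifts was not tested. Replicate numbers were not shown to pair the libraries (r from -0.346 to 0.595 over 10 pairs of groups), and the replicate block gave 30 between groups, 4 for the mean and 85 between pairs. On the estimated reads, limma-voom gave 30 and 4. Levels near 1 CPM rest on about 10 to 14 reads, which limits the low members.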
